A study of Bos taurus with 81 samples.

Results

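H3K9me3 was compared between bovine morulae and blastocysts, over the 4 deposited lists of H3K9me3 domains of these stages, 2 per stage, out of 18 H3K9me3 lists and 81 lists in the series. The members were the 497620 bins of 5 kb on autosomes 1 to 29, each called marked in a library where at least 50% of its bases lay under a domain. A bin was kept if marked in both morula and both blastocyst libraries, lost if marked in both morula and in neither blastocyst library, and gained in the reverse case. There were 8756 kept, 8528 lost and 6149 gained bins. Another 22444 bins were marked in at least 1 library without fitting a class and are called unsettled, and 451743 were marked in none.

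All embryos were produced in vitro from slaughterhouse oocytes and frozen semen, and both stages are labelled as controls without the inhibitor α-amanitin of the series. Morulae were collected 122 h and blastocysts 172 h after insemination. About 1000 to 1500 blastomeres, pooled over embryos, went into a CUT&Tag library, in which antibodies bring a tagging enzyme to chromatin with the mark and the DNA there is cut out for sequencing. A morula is a compacted ball of blastomeres, and a blastocyst holds the inner cell mass (ICM) and the more numerous trophectoderm (TE), which were also profiled on their own, the ICM after immunosurgery and the TE after cutting with a scalpel. In such pools, fewer cells with the mark and less mark per cell cannot be told apart. The labels do not say whether replicates came from separate collections of embryos, so their spread may be technical.

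H3K9me3 is the mark of constitutive heterochromatin. It is written by enzymes such as SETDB1 and SUV39H1, is bound by HP1 proteins, and holds retrotransposons and satellite repeats silent. H3K27me3, the other repressive mark of the series, is written by Polycomb repressive complex 2 and is known for developmental genes, while H3K4me3 and H3K27ac mark active promoters and enhancers. After fertilisation heterochromatin is rebuilt over several divisions, and the blastocyst is the stage at which the first lineages part.

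Read totals do not come with the lists, so depth is unknown. Replicate 2 covered more autosomal sequence at both stages, though in morulae it held fewer autosomal domains than replicate 1 (17808 against 18799). The lowest scores, taken as the 1st percentile of the score per 200 bases of a domain, were 2.13 and 2.48 in the morula libraries and 1.91 and 2.00 in the blastocyst libraries. The meaning of the score is not stated, and the part of depth in the results was not tested.

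Autosomal H3K9me3 covered 114 Mb in morula replicate 1 and 143 Mb in replicate 2, and 100.3 Mb and 134 Mb in the blastocyst replicates. The stages overlapped. The means were 129 Mb ± 20.8 (SD, n = 2) in morulae and 117 Mb ± 23.8 (SD, n = 2) in blastocysts, a log2 ratio of -0.14 (exact two-sided permutation test, p = 0.667). With 2 libraries against 2 no exact two-sided p below 0.333 can be reached. The ratio changed sign without morula replicate 2 (0.024) and without blastocyst replicate 1 (0.067) and was -0.26 without the first and last 2 Mb of the autosomes (p = 0.667 in the same exact test). No difference in total extent was detectable.

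The place of the mark differed more than its extent. Of the bins of morula replicate 1, 88.2% were also marked in morula replicate 2, against 43.3% and 50.6% in the blastocyst libraries. Of those of blastocyst replicate 1, 87.5% recurred in blastocyst replicate 2, against 48.2% and 58.8% in the morula libraries. The bin Jaccard index, the bins shared by a pair of lists over the bins in either, was 0.627 within morulae and 0.591 within blastocysts. Across the stages it lay between 0.295 and 0.334.

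Kept bins were 1.76% of autosomal bins, lost bins 1.71% and gained bins 1.24%. Of the 19767 bins marked in both morula libraries, 44.3% were kept and 43.1% lost, and 12.6% were marked in 1 of the 2 blastocyst libraries. Of the 17639 bins marked in both blastocyst libraries, 49.6% were kept and 34.9% gained. Lost bins made up 58.1% of lost plus gained bins. That share depended on single libraries: it was 68.3% without morula replicate 1, where 14067 bins were lost, and 41.7% without blastocyst replicate 1, where 12625 were gained. In lists trimmed to one length, 51.3% or 50.6% of the changed bins were lost, depending on how domains were ranked. Equal length by itself draws the numbers of lost and gained bins together, so these shares do not test the balance.

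Most lost and gained bins were unmarked over their whole length in the other stage. No base was covered in either blastocyst library in 80.6% of lost bins, nor in either morula library in 80.3% of gained bins. Because domain edges lie on a 200-base grid, the limit fell between 48% and 52% of a bin. The lower morula library stood just inside it, at 52%, in 838 lost bins, such as chromosome 1, 3920001 to 3925000 (52% and 100%). It stood just outside, at 48%, in 788 bins that would otherwise have been lost, such as chromosome 1, 1085001 to 1090000 (64% and 48%).

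Domains were described next by their length. The median domain measured 4.6 kb and 6 kb in the morula libraries and 4.4 kb and 5 kb in the blastocyst libraries. The length-weighted median, above which lies an equal share of covered bases as below, was 7.4 kb and 9.6 kb in morulae and 8.4 kb and 9.8 kb in blastocysts (log2 ratio 0.11, exact two-sided permutation test, p = 0.667), with a changed sign without morula replicate 1 (-0.081) or blastocyst replicate 2 (-0.0049). Joining domains less than 3 kb apart gave a log2 ratio of 0.63 (exact two-sided permutation test, p = 0.333), and leaving out the chromosome ends gave 0.0073. Domains of 20 kb or more held 14.3% and 21.2% of covered length in morulae and 20.96% and 26.7% in blastocysts. Domains of 50 kb or more numbered 34 and 95 in morulae and 68 and 156 in blastocysts. The stages overlapped in both. Domains of 10 kb or more numbered 2370 and 3878 in morulae and 2320 and 3249 in blastocysts. The longest domain measured 177.6 kb and 198.4 kb in morulae and 155.2 kb and 176.8 kb in blastocysts (log2 ratio -0.18, exact two-sided permutation test, p = 0.333), so the order of the stages depended on the length considered.

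**Figure D1:**
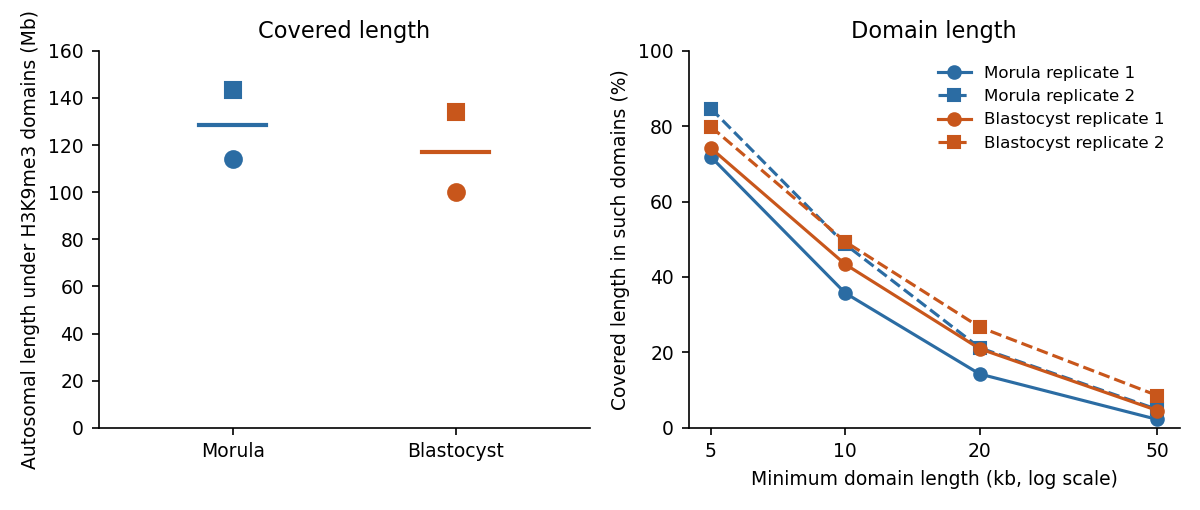
Autosomal length under H3K9me3 domains per library in Mb (left, horizontal lines are stage means) and the percentage of that length in domains of at least 5, 10, 20 or 50 kb (right, log length axis). The stages overlap in covered length and in the share of it in domains of 20 kb or more, which is 14.3% and 21.2% in morulae and 20.96% and 26.7% in blastocysts.

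Lost bins were short, scattered stretches. The 8528 lost bins formed 6566 runs of adjacent bins, of which 77.4% were a single bin, and 51.5% of the runs had unmarked bins on both sides. The longest measured 35 kb. Gained bins formed 4152 runs, 71.0% of them a single bin and 25.8% between unmarked bins, with a longest run of 75 kb. Kept bins formed 4108 runs, of which the longest measured 175 kb, and 43.0% of kept bins lay in runs of 4 bins or more, against 5.00% of lost and 14.98% of gained bins. A kept bin was the direct neighbour of 7.18% of lost and 13.4% of gained bins.

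Fate went with the length of the morula domain. Of 6701 stretches marked in both morula libraries over 1 bin, 63.3% were lost and 24.0% kept. Stretches of 2 to 3 bins lost 48.8% of their bins, those of 4 to 9 bins lost 22.0%, and the 129 stretches of 10 bins or more lost 3.56% and kept 90.5%. Of the latter 0% were lost whole. Seen from the blastocyst, 49.4% of single-bin stretches were gained, and in the 253 stretches of 10 bins or more 19.3% of bins were gained and 66.2% kept. Long morula domains were therefore mostly retained, whereas long blastocyst domains also contained gained bins. These are shares of bins within the same lists that define the classes, and carry no test.

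Scores within each list gave the rank of the domains. Domains with at least 50% of their bins kept had a median percentile of score per base of 49.5 and 62.0 in the morula lists, and those with at least 50% lost 52.7 and 56.5. By the score itself, which grows with length, kept domains stood at 69.9 and 77.3 and lost domains at 59.2 and 55.5, so lost domains ranked below kept ones in both morula lists by score and in replicate 2 alone by score per base. In the blastocyst lists kept domains stood at 64.8 and 76.6 by score per base and gained domains at 37.4 and 49.8, below the kept ones in both.

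The longest stretches of each class illustrate the 3 fates. The longest kept run lay on chromosome 29 (47750001 to 47925000), covered to 99.1% and 98.4% in the morula libraries and 90.1% and 96.5% in the blastocyst libraries. It was covered to 96.3% or more in each of the 8 oocyte and cleavage libraries, to 96.1% and 93.4% in TE, and to 33.8% and 21.9% in ICM. H3K27me3 covered 51.8% and 42.2% of it in morulae and 0% in both blastocyst libraries. The next were on chromosome 6 (113735001 to 113900000) and chromosome 11 (105250001 to 105400000). On chromosome 11 the GV oocyte libraries had 0%, the 2-cell libraries 64.3% and 61.1% and the 8-cell libraries 93.2% and 94.7%.

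The longest lost runs, of 35 kb, were on chromosome 1 (138640001 to 138675000) and chromosome 22 (29565001 to 29600000). The run on chromosome 22 was covered to 100% in both morula libraries, to 0% in both blastocyst and both TE libraries, and to 0% in all 8 oocyte and cleavage libraries. In ICM it was covered to 34.3% and 31.4%. H3K27me3 covered 76.0% and 61.7% of it in morulae and 2.86% and 3.43% in blastocysts. The run on chromosome 1 was at 0% in both ICM and both TE libraries. The third, on chromosome 1 (53110001 to 53140000), measured 30 kb.

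The longest gained run measured 75 kb on chromosome 26 (49175001 to 49250000). It was covered to 0% in both morula libraries, to 91.2% and 93.9% in the blastocyst libraries and to 98.4% and 95.2% in TE, and to 28.0% and 79.7% in ICM. The same stretch had been covered to 68.8% and 71.7% in the 8-cell libraries, so the mark was present before the morula as well. The run on chromosome 19 (57230001 to 57290000) had 0% in the 8 oocyte and cleavage libraries and in morulae. It then had 82.3% and 87.3% in blastocysts, 100% and 98.7% in TE, and 66.7% and 61.0% in ICM. H3K27me3 covered 88.3% and 89.7% of it in morulae and 98.0% and 100% in blastocysts. The third lay on chromosome 2 (130645001 to 130695000) and measured 50 kb.

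The classes were then followed in the H3K9me3 libraries that had not defined them. Kept bins were marked in 21.1% and 21.7% of cases in the GV oocyte libraries, 36.8% and 37.0% at the 2-cell, 52.7% and 53.0% at the 4-cell and 56.5% and 53.3% at the 8-cell stage. Over all autosomal bins the values were 7.75% and 7.65% in GV oocytes and 6.95% and 6.88% at the 8-cell stage. Lost bins stood at 12.5% and 12.2% in GV oocytes, 8.14% and 8.04% at the 2-cell and 12.1% and 11.02% at the 8-cell stage. Gained bins went from 14.7% and 15.1% in GV oocytes to 20.96% and 19.7% at the 8-cell stage. None of the 8 oocyte and cleavage libraries marked 35.3% of kept, 77.1% of lost and 70.7% of gained bins, against 86.7% of all bins.

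ICM and TE make up the blastocyst, whose libraries defined the classes, so gained and lost bins had to differ there to some degree. TE libraries marked 88.6% and 87.9% of gained bins, which is close to the 88.6% and 87.1% of kept bins. They marked 6.13% and 6.32% of lost bins, near the 6.36% and 6.42% over all bins. ICM libraries marked 82.5% and 88.6% of kept, 42.1% and 61.8% of gained and 17.4% and 23.3% of lost bins, against 3.94% and 5.22% of all bins. The TE libraries differed from each other by at most 1.54 points in a class, and the ICM libraries by 5.93 to 19.7 points.

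The percentage of gained minus that of lost bins was taken per library. It was 24.7 and 38.5 points in the ICM and 82.5 and 81.6 points in the TE libraries, and 2.19 to 9.91 points in the 8 oocyte and cleavage libraries, without overlap. The mean was 56.9 ± 29.6 (SD, n = 4) in ICM and TE and 6.61 ± 3.03 (SD, n = 8) in the earlier libraries, a difference of 50.2 points. It is given as a description, since the class rule favours it and each side joins several stages or lineages. Within lineages ICM was 50.4 points below TE (exact two-sided permutation test, p = 0.333, the smallest possible). The classes were defined on whole blastocysts, in which TE is the more numerous, so the rule also favours a larger value in TE. This difference is likewise a description. Of lost bins, 11.1% were marked in both ICM and in no TE library, against 0.845% of all bins, and 1.93% showed the reverse, against 1.98%. Of gained bins, 26.6% were marked in both TE and in no ICM library, 2.49% in the reverse case and 31.6% in all 4. Over all bins these shares were 1.98%, 0.845% and 2.11%.

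**Figure D2:**
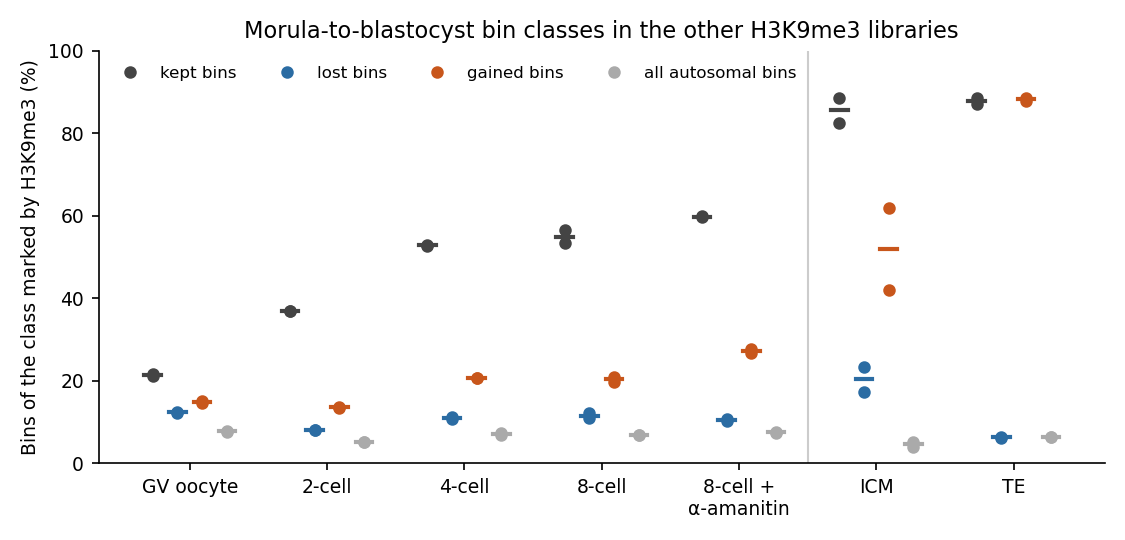
Percentage of kept, lost, gained and all autosomal bins that were marked in each H3K9me3 library of the other groups (points are libraries, short lines are group means). Gained bins stand at 88.6% and 87.9% in TE beside lost bins at 6.13% and 6.32%, and in ICM the classes lie closer together.

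Of the 8528 lost bins, 52.8% were marked in none of the 12 GV, 2-cell, 4-cell, 8-cell, ICM and TE libraries, below the 80.3% of all bins. For kept bins the share was 0.365% and for gained bins 1.53%. These 2 classes are marked in both blastocyst libraries by rule, and lost bins in neither, so the contrast follows in part from the rule through ICM and TE. In the 8 oocyte and cleavage libraries alone the share was 77.1% of lost and 70.7% of gained bins.

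The other marks of the same stages were compared as the percentage of bases of a class under their peaks. In percentage points H3K27me3 set the classes apart most. In kept bins it covered 74.8% and 71.9% in the morula libraries and 71.3% and 70.0% in the blastocyst libraries. In gained bins it covered 67.3% and 63.7% in morulae, where by rule neither H3K9me3 library marked them, and 83.3% and 82.8% in blastocysts. In lost bins the values were 20.8% and 18.3% in morulae and 8.86% and 9.31% in blastocysts. Over all autosomal sequence H3K27me3 covered 6.56% and 6.01% in morulae and 10.9% and 11.3% in blastocysts, so gained bins were covered 10.3 and 10.6 times as much as the average in morulae, and lost bins 3.18 and 3.04 times.

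Between the stages H3K27me3 was 17.6 points higher in gained bins (65.5% ± 2.53 against 83.1% ± 0.334, SD, n = 2 each) and 10.5 points lower in lost bins (19.6% ± 1.82 against 9.09% ± 0.318). Over all sequence it was 4.83 points higher. As a ratio of the blastocyst to the morula mean it was 1.27 in gained and 0.464 in lost bins, against 1.77 over all sequence. Coverage has a ceiling, and from 65.5% in morulae gained bins could not reach a ratio of 1.77. The ratios therefore do not compare the rise in gained bins with the average. The stages did not overlap in either class. Each of the 9 comparisons of 3 marks in 3 classes gave an exact two-sided permutation p of 0.333, the smallest possible (adjusted p = 0.333). The difference in lost bins ranged from -15.7 points, with bins marked at 75% coverage, to -4.46 points, with bins marked by any covered base, and was -5.28 points without morula replicate 1.

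H3K27me3, called over bins in the same way, was lost in 8.54% and kept in 4.57% of H3K9me3-lost bins. In H3K9me3-kept bins it was lost in 6.26% and kept in 64.0%. The background over all bins was 0.625% lost and 4.53% kept. A bin without H3K27me3 in morulae cannot lose it, so the lost shares alone do not compare the classes. H3K27me3 was gained in 1.86% of lost and 3.43% of kept bins, against 4.39% of all bins. In gained bins H3K27me3 was kept in 63.7% and gained in 12.6%, against 4.53% and 4.39% of all bins. In lost bins it was marked in none of the 4 H3K27me3 libraries in 71.2%, below the 85.9% of all bins.

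Read in the other direction, bins with H3K27me3 were more often gained or kept, whether it was called in morulae or in blastocysts. Among bins without H3K9me3 in either morula library, 22.0% of those marked by H3K27me3 in morula replicate 1 and 23.6% of those marked in replicate 2 were gained. The share was 0.397% and 0.432% where H3K27me3 was not marked. Among bins with H3K9me3 in both morula libraries, 69.4% and 72.0% of those with H3K27me3 were kept and 19.2% and 16.9% lost. Without H3K27me3, 19.8% and 20.6% were kept and 66.5% and 65.6% lost. Leaving out the first and last 2 Mb of each autosome gave 20.4% and 21.9% gained with H3K27me3 and 0.351% and 0.381% without. By H3K27me3 of blastocyst replicates 1 and 2, 12.2% and 11.5% were gained with it and 0.201% and 0.216% without. Of bins with H3K9me3 in both morula libraries, 78.5% and 77.9% were kept with blastocyst H3K27me3 and 20.1% and 21.2% without. Whether 1 mark came before the other was not tested. Neighbouring bins are not independent, so these shares carry no test.

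**Figure D3:**
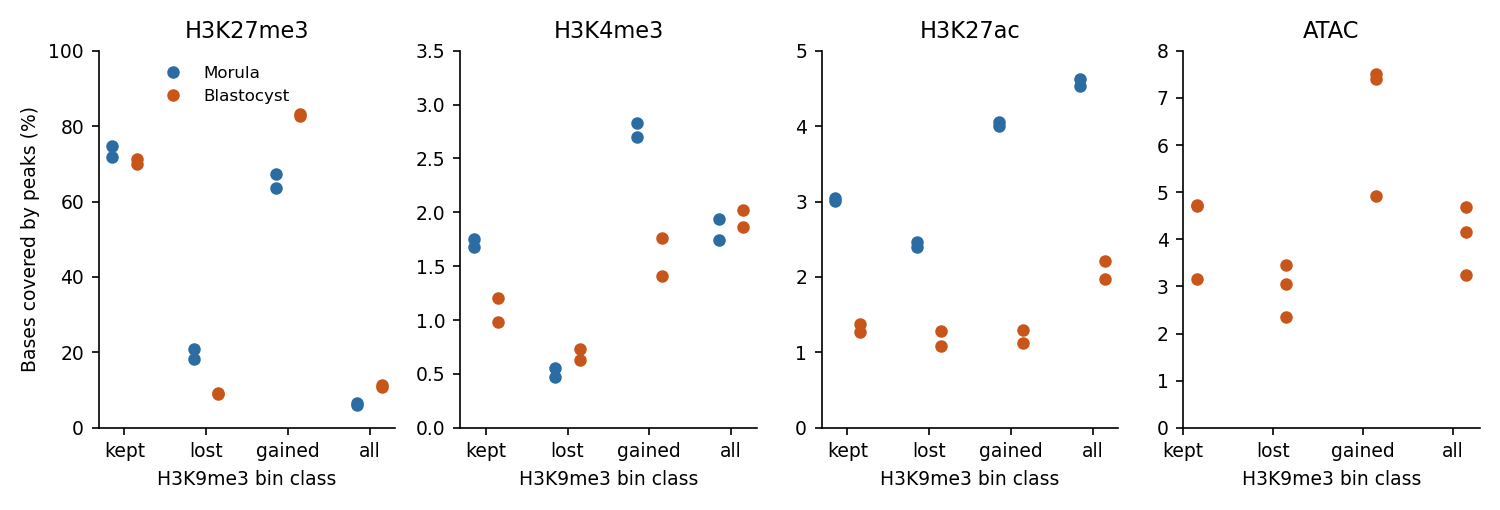
Percentage of bases under peaks of H3K27me3, H3K4me3, H3K27ac and ATAC in kept, lost, gained and all autosomal bins, with 1 point per library (ATAC: blastocyst, 3 libraries). H3K27me3 covers 63.7% to 83.3% of gained bins and 8.86% to 20.8% of lost bins, and the vertical scales differ between panels.

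Active marks covered little of any class, and lost bins least of H3K4me3. H3K4me3 covered 0.471% and 0.551% of lost bins in morulae and 0.632% and 0.735% in blastocysts, against 1.74% and 1.93%, and 1.86% and 2.03%, of all sequence. In gained bins H3K4me3 covered 2.70% and 2.83% in morulae, above the average, and 1.41% and 1.77% in blastocysts (ratio of the means 0.576). Over all sequence that ratio was 1.06. In kept bins the values were 1.68% and 1.75% in morulae and 0.983% and 1.21% in blastocysts.

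H3K27ac covered 4.63% and 4.53% of all sequence in morulae and 1.97% and 2.21% in blastocysts, a ratio of 0.457. In gained bins it covered 4.01% and 4.05% in morulae and 1.13% and 1.30% in blastocysts, a ratio of 0.302. In lost bins it covered 2.47% and 2.40%, then 1.09% and 1.29%, a ratio of 0.488, and in kept bins the ratio was 0.439. The lower H3K27ac of gained bins thus came on top of shorter H3K27ac lists at the blastocyst stage.

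ATAC-seq, which tags accessible DNA without an antibody, was at hand for blastocysts. ATAC peaks covered 4.92%, 7.51% and 7.40% of gained bins, 3.17%, 4.72% and 4.73% of kept bins and 2.36%, 3.06% and 3.46% of lost bins. All sequence was covered to 3.25%, 4.15% and 4.69%. In each library gained bins were the most and lost bins the least covered of the 3 classes, with means of 6.61% ± 1.46 and 2.96% ± 0.557 (SD, n = 3).

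Coverage was then compared by chromosome. On 7 of 29 autosomes (24.1%) both blastocyst libraries were covered less than both morula libraries, on 2 (6.9%) more, and on 20 the stages overlapped. With domains less than 3 kb apart joined, 5 were lower and 4 higher. The difference of the mean covered share was lowest on chromosomes 6, 1 and 2. Chromosome 6 was covered to 5.15% and 6.01% in morulae and to 3.17% and 4.09% in blastocysts, with 475 lost and 138 gained bins. Chromosome 1 was covered to 4.87% and 5.79%, then to 3.02% and 4.14%, with 682 lost and 239 gained bins. Chromosome 2 had 4.71% and 5.81%, then 3.20% and 4.29%. On these 3 the higher blastocyst library stayed below the lower morula library.

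The difference was highest on chromosomes 19, 24 and 26. Chromosome 19 was covered to 3.95% and 5.67% in morulae and to 6.69% and 8.99% in blastocysts, with 145 lost and 384 gained bins. Chromosome 24 had 3.496% and 4.55%, then 4.77% and 6.56%, with 165 lost and 304 gained bins. Chromosome 26 had 4.72% and 6.20%, then 6.06% and 7.95%, and its stages overlapped. Gained bins took up 3.03% of chromosome 19, the highest share of an autosome, and lost bins 1.14%, the lowest.

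**Figure D4:**
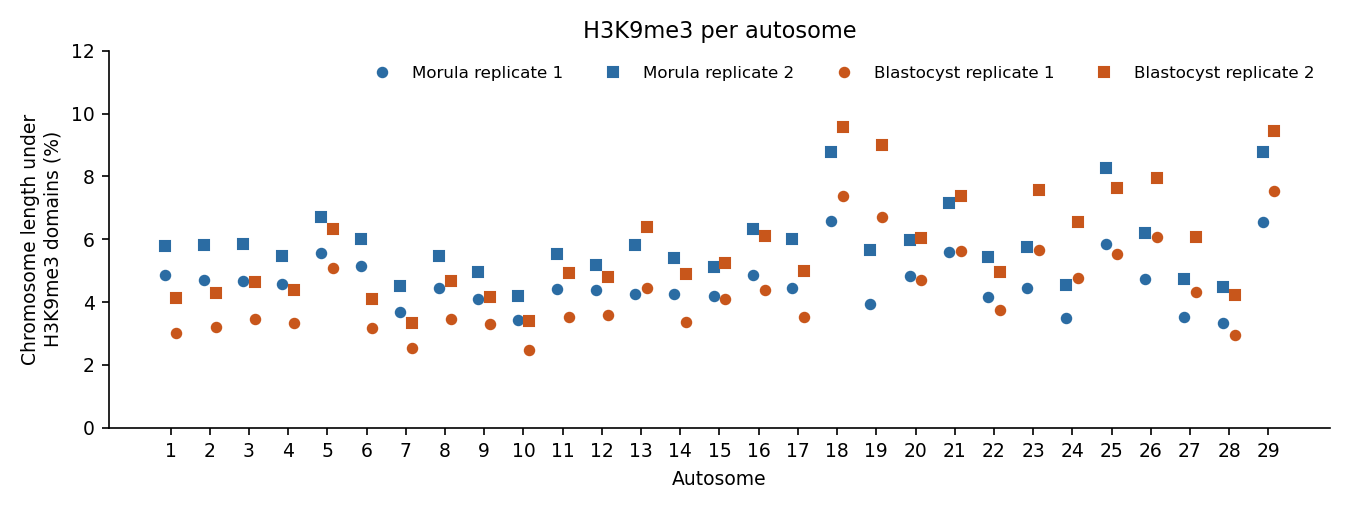
Percentage of each autosome under H3K9me3 domains in the 4 libraries (circles replicate 1, squares replicate 2). Chromosomes 1 and 6 have both blastocyst libraries below both morula libraries, and chromosomes 19 and 24 have them above.

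Cattle autosomes are numbered roughly by length, and the longer ones had more lost bins per gained bin. On the 11 autosomes over 100 Mb there were 4655 lost and 2228 gained bins, 2.09 lost per gained bin, and the mean of the blastocyst libraries was below that of the morula libraries on 11 of 11. On the 18 shorter ones there were 3873 lost and 3921 gained bins, a ratio of 0.988, and 8 of 18 had the lower mean in blastocysts. Across the 29 autosomes Spearman's rho between length and the log2 ratio of blastocyst to morula coverage was -0.77, and -0.76 and -0.74 within replicate numbers 1 and 2. Length went with the gained share (rho = -0.73) more than with the lost share (rho = 0.33). These are descriptions over chromosomes that share the same 4 libraries, and base composition and gene density were not analysed here.

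Counts of separated chromosomes depended on the length of the lists. Leaving out 1 library widened or turned their balance, which was 7 lower and 2 higher in the full lists. Without morula replicate 1, 18 autosomes were lower in blastocysts and 2 higher, and without blastocyst replicate 2, 20 were lower and 2 higher. Without morula replicate 2, 7 were lower and 9 higher, and without blastocyst replicate 1, 7 were lower and 11 higher. With the lists trimmed to 100.3 Mb, by score, 13 autosomes were lower in both blastocyst libraries and 12 higher, and ranking by score per base gave 13 and 13. Of the 11 long autosomes 10 were then lower, and rho with length was -0.75 and -0.72. Chromosome 19 had 3.44% and 3.99% in the morula and 6.69% and 6.98% in the blastocyst lists trimmed by score, so its difference was wider than in the full lists. These counts describe lists of equal length and carry no test. At equal length, lower coverage of some autosomes has to be offset by higher coverage of others.

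Position along the chromosome was compared, since cattle autosomes carry their centromere at the start of the sequence. In the last 2 Mb, on the telomere side, domains covered 22.3% and 27.2% in morulae and 31.6% and 38.1% in blastocysts, without overlap. Between the ends they covered 4.09% and 5.18%, then 3.27% and 4.501%, and in the first 2 Mb 7.15% and 8.22%, then 7.38% and 8.73%. Kept bins made up 18.3% of the last 2 Mb, gained bins 8.30% and lost bins 1.39%, against 1.29%, 1.06% and 1.73% between the ends. These last 2 Mb held 24.2% of kept, 15.7% of gained bins, and 162 lost bins.

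The band of gained bins was broader than 2 Mb. Gained bins made up 6.84% of the outermost Mb, 10.7% of the third and 5.84% of the sixth from the end, and 2.83% of the seventh. Lost bins lay between 1.28% and 2.28% over the outer 10 Mb. In lists trimmed by score the last 2 Mb were covered to 20.9% and 22.8% in morulae and 31.6% and 34.2% in blastocysts. Without either end the classes numbered 6132 kept, 8223 lost and 5026 gained bins. Then 10 autosomes were lower and 1 higher in both blastocyst libraries, and rho with length was -0.74. The band reached beyond the 2 Mb left out, so this rho does not set length apart from position. H3K27me3 also covered 40.1% to 42.6% of the last 2 Mb in each morula and blastocyst library, and its part in the H3K9me3 pattern there was not tested.

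**Figure D5:**
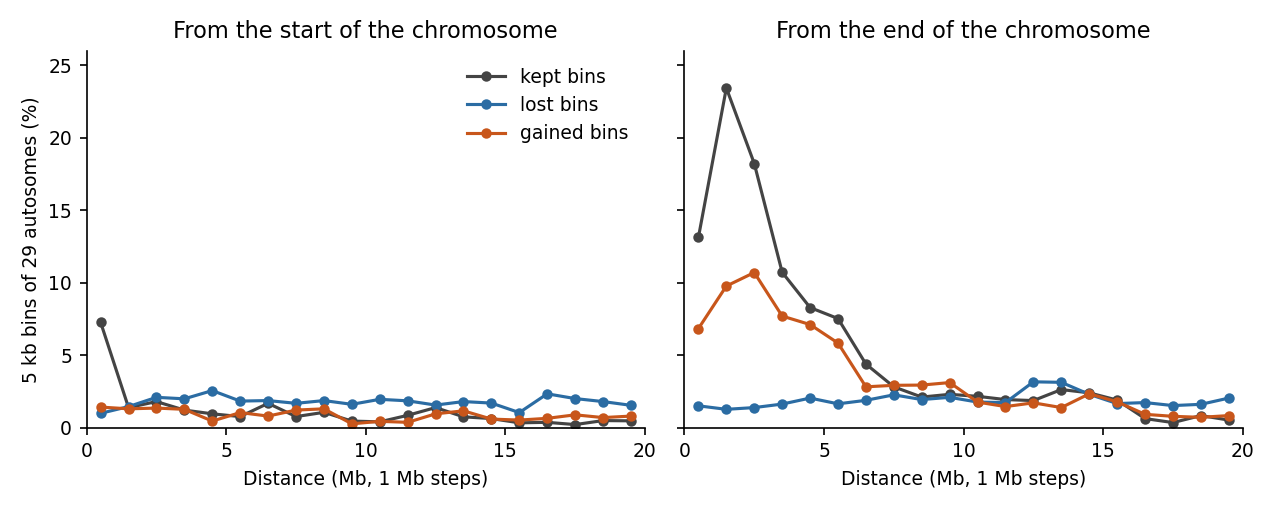
Percentage of 5 kb bins that were kept, lost or gained in 1 Mb steps from the start (left, centromere side) and from the end (right, telomere side) of the 29 autosomes. Kept and gained bins reach 23.4% and 10.7% within 3 Mb of the end, and lost bins stay between 1.00% and 3.17% over both panels.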

How the data were processed

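CUT&Tag domain lists of H3K9me3 (18 libraries), lists of the other marks in morulae and blastocysts (12) and ATAC-seq lists of blastocysts (3) were used. Per the submitters' processing notes the tools were SICER, SAMtools 1.9, Picard 2.26.10, BWA 0.7.9a, cutadapt 1.8.3 and Trim Galore 0.4.0, on the ARS-UCD1.2 build. The deposited files are named for epic2. The cutoff and control were not given in the sources used here. Each deposited domain carries a whole-number score of unstated meaning, used to rank domains within a list. Each library was called separately. H3K9me3 domain edges lay on a 200-base grid, with gaps of at least 1200 bases.

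The end given in a file was read as the last base. Covered bases were summed over 5 kb bins with pandas 2.3.3 and NumPy 2.4.6 in Python 3.11.15, after the functions were tested on simulated lists. Chromosome length was the highest domain end in the lists used. Differences between stages were tested over libraries by exact permutation, with Benjamini-Hochberg adjustment over the 9 mark and class comparisons. Samples were grouped by their titles. Regions named are the 3 longest runs of each class, and chromosomes named are the 3 with the highest and lowest change. The members and lists were chosen with earlier results of these data known. Alternatives were other bin limits and sizes, trimmed and joined lists, X added, single libraries left out, a replicate block and, chosen after seeing the data, autosomes without their ends. The gene table at hand is of another assembly, ARS-UCD2.0, so genes, repeats and sequences were not analysed here.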

Additional observations from a re-analysis of the deposited data

Results flagged for a closer look

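The X chromosome was outside the comparison of autosomes and showed signal of the same kind. On X 763 bins were lost and 504 gained from morula to blastocyst, 2.74% and 1.81% of its bins. Domains covered 7.12% and 7.88% of X in the morula libraries and 5.35% and 7.75% in the blastocyst libraries. The embryos were pools, and no explanation of these values was tested.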

How the results depend on the processing

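The difference of 50.2 points between ICM with TE and the earlier libraries stayed between 35.8 and 54.0 points under 12 alternatives. The 4 differences of H3K27me3, H3K27ac and H3K4me3 in lost or gained bins kept their direction under the same 12. Kept, lost and gained bins numbered 15536, 15402 and 9833 where any covered base marked a bin, 5240, 5167 and 3835 at 75% coverage, and 3997, 3421 and 2790 in 10 kb bins. Leaving out single libraries gave 9149 to 11097 kept, 9045 to 14067 lost and 6542 to 12625 gained bins, with the extremes given in the report. The share of lost among lost plus gained bins was 61.0% with any covered base, 55.1% in 10 kb bins, 51.3% and 50.6% in lists trimmed by score and by score per base, 62.1% without chromosome ends and 41.7% to 68.3% without single libraries. Separated autosomes numbered 9 in the full lists, 25 and 26 in the lists trimmed by score and by score per base, and 16 to 22 without single libraries, with the directions given in the report; a stage with 1 library has no range of its own, which makes separation easier. The log2 ratio of covered length was -0.35 to 0.067 without single libraries, and that of domain length -0.081 to 0.29, reversed by libraries named in the report; joining domains less than 3 kb apart gave 0.63 for domain length, and leaving out chromosome ends, chosen after seeing the data, gave -0.26 and 0.0073. Covered length was not recomputed in trimmed lists, since trimming fixes it. Trimming also draws the numbers of lost and gained bins together, so the share of lost bins there does not test their balance. With the replicate number as a block the ratios were -0.14 and 0.11 (exact permutation p = 0.5, the smallest that 2 pairs allow), and the deviations of same-numbered libraries correlated by -0.0353 over marked bins, so the numbers were not taken as pairs. The cause of these dependences was not tested. Unknown depth limits every count, and 2 libraries per stage limit every test.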

Other observations

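Embryos grown to the 8-cell stage with α-amanitin, which blocks RNA polymerase II, were outside the comparisons above. Their H3K9me3 libraries marked 27.7% and 26.7% of the bins that were later gained from morula to blastocyst, and the control 8-cell libraries marked 20.96% and 19.7%. For kept bins the values were 59.9% and 59.6% against 56.5% and 53.3%, and for lost bins 10.6% and 10.3% against 12.1% and 11.02%. Over all autosomal bins they were 7.48% and 7.41% against 6.95% and 6.88%. The groups did not overlap in any of the 3 classes, nor over all autosomal bins, and the differences were not tested.

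Unplaced scaffolds held 3378 and 2693 H3K9me3 domains in the morula lists and 4205 and 3284 in the blastocyst lists. They covered 16.5 Mb and 16.2 Mb in morulae and 19.4 Mb and 15.9 Mb in blastocysts.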
